A study of Saccharomyces cerevisiae with 6 samples.

Results

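The retrograde pathway carries word of the state of the mitochondria to the nucleus, and 10 budding yeast genes of this pathway and of the methylcitrate cycle were followed in aged and young cells. The 10 genes were taken by name from the 7127 features of the deposited table: 3 targets of the pathway (CIT2, DLD3 and ATO3), 3 methylcitrate genes (CIT3, PDH1 and ICL2) and 4 regulators (RTG1, RTG2, RTG3 and MKS1). Each name matched 1 row, and all 10 passed the filter on low counts. The strain throughout was CGY4.51, a prototroph with no deletion that the labels give as MAT@, and poly(A) RNA was sequenced from 3 aged and 3 young cultures. Aged cells had spent 24 h in ministat aging devices (MADs), in which mother cells are held by beads while flowing medium carries their daughters off. Young cells came from exponential cultures in synthetic complete medium with glucose. Age and the culture system therefore cannot be told apart in this comparison, and in a bulk sample a change in the cell mixture and a change in RNA per cell cannot be told apart either.

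In the retrograde pathway, Rtg1p and Rtg3p form a heterodimer that binds a short DNA element called the R box and switches on its target genes. Mks1p holds the pathway back, and Rtg2p, a cytoplasmic protein that binds Mks1p, relieves that block when mitochondrial function fails. The best known target is CIT2, and the pathway is known for keeping up the supply of alpha-ketoglutarate for glutamate synthesis in cells that respire poorly. The methylcitrate cycle is a mitochondrial route that disposes of propionyl-CoA, a product of threonine and branched-chain amino acid breakdown, by way of 2-methylcitrate.

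Values are CPM, counts normalised to the library total after TMM scaling, which adjusts library size for differences in RNA composition. Differences are log2 fold changes of aged over young from edgeR's quasi-likelihood test, with p-values adjusted by Benjamini-Hochberg over 6755 tested features. Library totals lay between 29230292 and 41650202 estimated counts in aged cells and between 30140666 and 35102213 in young cells. Of all tested features, 63.5% passed an adjusted p-value of 0.05, 32.7% higher and 30.8% lower in aged cells, and in 70.1% the 3 aged libraries did not overlap the 3 young ones. Of the 10 genes, 7 passed, which is close to that background. The 5 that were higher were CIT2, DLD3, PDH1, RTG1 and RTG2, and the 2 that were lower were ATO3 and ICL2. CIT3, RTG3 and MKS1 did not pass, although CIT3 and RTG3 joined the lower genes with a correction for GC content or gene length. In 8 of the 10, all except CIT3 and MKS1, the aged and young libraries did not overlap. The median log2 fold change of the 10 was 0.23, against 0.02 over all tested features.

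The R box has the core GTCAC, which reads GTGAC on the other strand. It was searched on both strands in the 500 bases before each start codon in the R64 genome of RefSeq, since this is the element through which Rtg1p and Rtg3p act. CIT2 held 3 matches, DLD3, ATO3 and RTG3 held 2 each, CIT3, RTG1 and RTG2 held 1 each, and PDH1, ICL2 and MKS1 held 0. The core is short and common: of 6000 nuclear protein-coding genes, 42.4% held at least 1 match in the same window, 11.2% at least 2 and 2.3% at least 3. It was not particular to the 10 genes. Among their relatives, described below, ICL1 held 2 matches, CIT1, DLD1, ADY2, ATO2 and ACO1 held 1 each, and DLD2 held 0. In CIT2, DLD3, RTG3 and ATO3 a pair of matches lay in opposite orientation. The closely spaced pairs of the first 3 are given. CIT2 and DLD3 were the genes that rose most, and RTG3 did not pass the test. Each is written 5′ to 3′ on the strand of its gene, with the R box core in capitals.
CIT2 (chrIII:122616-122693, minus strand): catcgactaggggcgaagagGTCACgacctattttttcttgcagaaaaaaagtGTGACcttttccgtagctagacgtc
DLD3 (chrV:16175-16236, plus strand): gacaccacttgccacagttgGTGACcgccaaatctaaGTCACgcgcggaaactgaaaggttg
RTG3 (chrII:23854-23926, minus strand): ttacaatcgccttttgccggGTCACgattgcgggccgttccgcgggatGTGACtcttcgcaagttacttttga

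The starts of the paired cores lay 33 bases apart in CIT2, 17 in DLD3 and 28 in RTG3. A pair at least as close, in any orientation, was found before 2.27% of the 6000 genes at the CIT2 spacing. The shares were 1.07% at the DLD3 spacing and 2.07% at the RTG3 spacing. The CIT2 stretch falls within YCR006C, an annotated reading frame next to CIT2, whereas the other stretches touch no annotated gene. RTG3, with its close pair, did not pass the test, whereas PDH1 and RTG2 rose with 0 and 1 matches. Whether the matches had a part in any change was not tested. In ATO3, the target that did not rise, the matches also lay in opposite orientation but farther apart, and CIT3 held a single one. These sites are given in the same way, for comparison with the pairs above.
ATO3 (chrIV:1242189-1242217, minus strand): ttcacgatgaccGTGACtcagaaggaata
ATO3 (chrIV:1242082-1242110, minus strand): ataaacagttggGTCACatataactgaat
CIT3 (chrXVI:556140-556168, plus strand): aaaattggggaaGTGACacaccatggtag

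**Figure D1:**
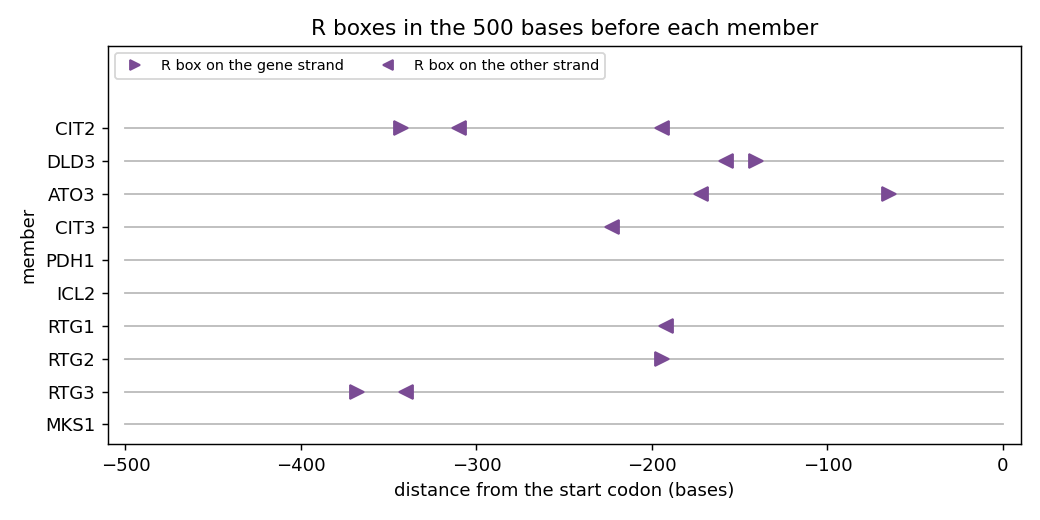
R box cores (GTCAC on either strand) in the 500 bases before the start codon of each of the 10 genes. The x axis is the distance from the start codon in bases, and the direction of a triangle gives the strand of the match. CIT2 has 3 matches, PDH1, ICL2 and MKS1 have 0, and a match is a run of letters, not a measured binding site.

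CIT2 was the most increased of the 10 genes. It encodes the peroxisomal citrate synthase of the glyoxylate cycle (YCR005C, chrIII:120946-122328, R64). Its level was 255, 268 and 260 CPM in aged replicates 1 to 3, against 89.7, 87.3 and 91.0 CPM in young replicates 1 to 3. The lowest aged library stood well above the highest young one, and libraries within a group lay close together. CIT2 rose 2.92-fold (95% confidence interval 2.62 to 3.26), a log2 fold change of 1.55 ± 0.07 (SE) with an adjusted p of 9.34e-08 in edgeR. Of the 6755 tested features, 2.22% rose at least as much, CIT2 included.

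DLD3 also rose, by a smaller factor. Dld3p is a cytosolic enzyme that oxidises D-2-hydroxyglutarate while reducing pyruvate to D-lactate (YEL071W, chrV:16355-17845). DLD3 had 212, 224 and 226 CPM in aged replicates 1 to 3, against 105, 109 and 103 CPM in young replicates. The log2 fold change was 1.06 ± 0.07 (SE), or 2.09-fold, with an edgeR adjusted p of 1.75e-06, and 5.26% of tested features rose at least as much. The groups did not overlap, and DLD3 was higher in aged cells in each of the 3 same-numbered pairs.

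ATO3 went the other way. It encodes a plasma membrane protein thought to export ammonia (YDR384C, chrIV:1241204-1242031) and is also counted among the Rtg1p-Rtg3p targets. ATO3 had 38.2, 37.5 and 36.4 CPM in aged replicates, against 52.2, 45.2 and 42.0 CPM in young replicates. The aged libraries were nearly equal and all below the young ones, which spread more widely. Its log2 fold change was −0.32 ± 0.09 (SE; edgeR adjusted p = 0.00852). With scaling by total counts alone, which moved the median of all features to 0.54, ATO3 came out at 0.19 with an adjusted p of 0.154. Relative to that median it stayed lower, at −0.34, and with a GC correction it was at −0.65.

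**Figure D2:**
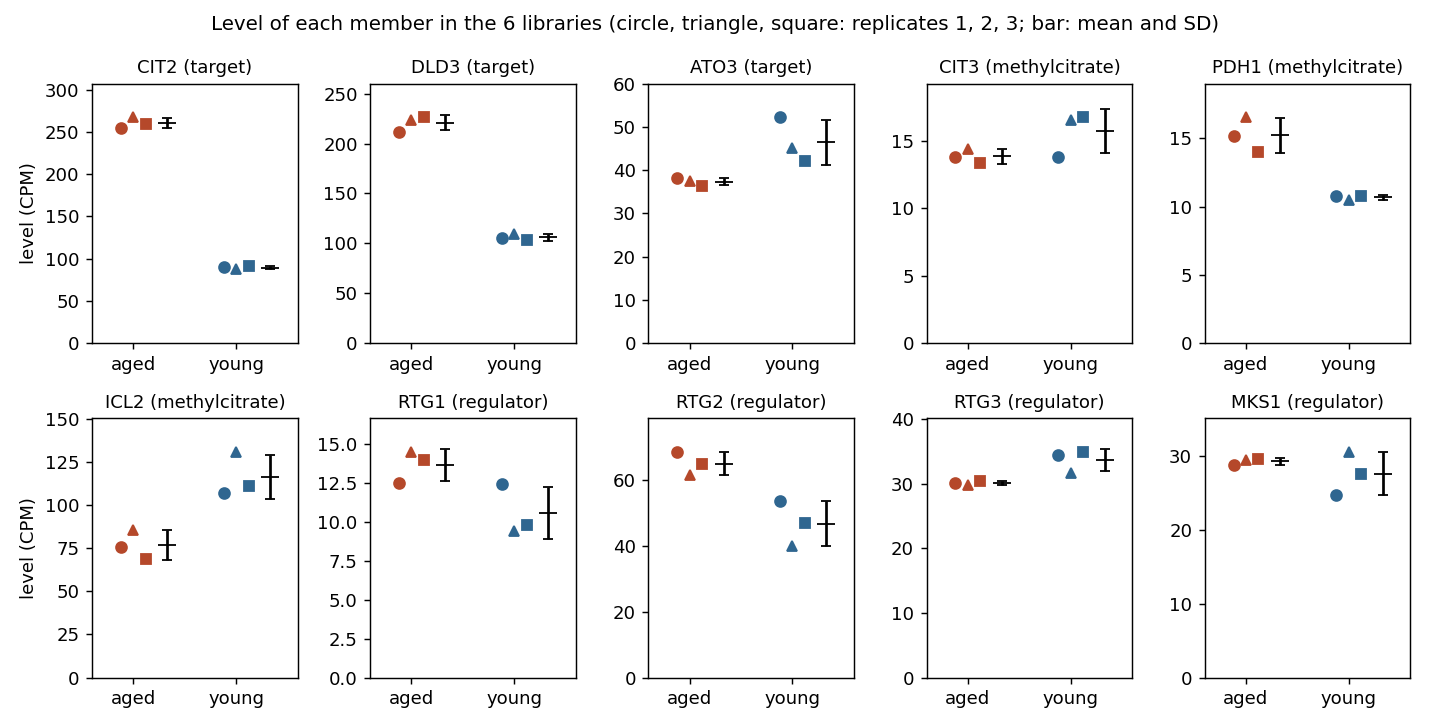
Level of each of the 10 genes in CPM in the 3 aged libraries, left in each panel, and the 3 young libraries, right, with the mean and SD beside them. Every y axis starts at 0. CIT2, at 255 to 268 CPM in aged and 87.3 to 91.0 CPM in young libraries, shows the widest gap, and for CIT3 and MKS1 the groups overlap.

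The 3 methylcitrate genes did not move together. CIT3, whose product is a mitochondrial citrate and methylcitrate synthase that opens the cycle (YPR001W, chrXVI:556377-557837), did not pass the test. PDH1, which encodes the mitochondrial 2-methylcitrate dehydratase of the next step (YPR002W, chrXVI:558385-559935), rose. ICL2, which encodes the 2-methylisocitrate lyase that closes the route (YPR006C, chrXVI:567269-568996), fell.

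CIT3 had 13.8, 14.4 and 13.4 CPM in aged replicates, against 13.9, 16.6 and 16.8 CPM in young replicates. Young replicate 1 was at the level of the aged libraries, and without it the log2 fold change was −0.28 with an adjusted p of 0.0174. With all libraries it was −0.18 ± 0.10 (SE; 95% interval −0.41 to 0.04; edgeR adjusted p = 0.132), and the sign turned to 0.33 with total counts alone.

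PDH1 had 15.2, 16.5 and 14.0 CPM in aged replicates, against 10.8, 10.5 and 10.8 CPM in young replicates. All aged libraries were above all young ones, and PDH1 rose 1.42-fold (log2 0.51 ± 0.10 SE; edgeR adjusted p = 0.00115). ICL2 had 75.7, 85.6 and 68.5 CPM in aged replicates, against 106.9, 130.5 and 111.2 CPM in young replicates. All aged ICL2 values were below all young ones, and the log2 fold change was −0.60 ± 0.10 (SE; edgeR adjusted p = 5.38e-04). With total counts alone ICL2 was at −0.08 with an adjusted p of 0.432, and at −0.62 relative to the median of all features.

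CIT3 and PDH1 are neighbours on the same strand, 547 bases apart, yet PDH1 rose while CIT3 did not pass the test. The other genes of this stretch of chromosome XVI did not share one direction either. HAT1, the histone acetyltransferase gene on the left, had 60.7 ± 4.23 CPM in aged and 90.5 ± 7.24 CPM in young cells (SD, n = 3 each). Its log2 fold change was −0.58, and −0.07 with total counts alone (edgeR adjusted p = 0.594). Between PDH1 and ICL2, HAL1, a halotolerance gene, was higher (log2 0.80) and AIM45, a gene for a mitochondrial flavoprotein subunit, was lower (−0.21, and 0.30 with total counts alone). YPR003C was at −0.20 and did not pass (edgeR adjusted p = 0.0745, and 0.045 with the replicate block). The AIM45 call was lost without aged replicate 1 or 3 or young replicate 3 (adjusted p 0.0831 to 0.113). REC8, a meiotic cohesin gene just past ICL2, was higher at 2.98 ± 0.364 CPM in aged and 0.975 ± 0.231 CPM in young cells (SD, n = 3 each; log2 1.61, edgeR adjusted p = 1.60e-04), both low levels.

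Among the regulators, RTG1 and RTG2 were higher in aged cells, while RTG3 and MKS1 did not pass. The transcript levels of the 4 regulators moved by less than those of CIT2 and DLD3. RTG2 encodes the sensor that relieves the block by Mks1p (YGL252C, chrVII:25718-27484). It had 68.6, 61.6 and 64.9 CPM in aged replicates, against 53.7, 40.0 and 46.9 CPM in young replicates, with no overlap. RTG2 rose 1.39-fold (log2 0.47 ± 0.10 SE; edgeR adjusted p = 0.00225).

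RTG1 encodes the smaller basic helix-loop-helix partner of the heterodimer (YOL067C, chrXV:201985-202518). It had 12.5, 14.5 and 14.0 CPM in aged replicates, against 12.4, 9.42 and 9.81 CPM in young replicates. Replicates 1 of both groups were nearly equal, and the groups just failed to overlap. The log2 fold change was 0.37 ± 0.12 (SE; edgeR adjusted p = 0.0226). The call was lost without aged replicate 2 (0.33, adjusted p = 0.0822), aged replicate 3 (0.35, adjusted p = 0.0714) or young replicate 3 (0.32, adjusted p = 0.0787). It was also lost with a correction for GC content, at 0.02 with an adjusted p of 0.893, and RTG1 has a GC content of 49.8%.

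RTG3 encodes the partner that carries the activation domain (YBL103C, chrII:22076-23536). It had 30.1, 29.8 and 30.4 CPM in aged replicates, against 34.4, 31.7 and 34.9 CPM in young replicates. The aged values were all just below the young ones, but the log2 fold change of −0.16 ± 0.07 (SE; 95% interval −0.32 to −0.01) had an edgeR adjusted p of 0.0666. It passed with DESeq2's size factors (−0.18, adjusted p = 0.0396), without young replicate 2 (−0.20, adjusted p = 0.0323) and with a GC (−0.25) or length (−0.35) correction, and turned to 0.35 with total counts alone. MKS1, the negative regulator (YNL076W, chrXIV:483556-485310), had 28.8, 29.5 and 29.7 CPM in aged replicates, against 24.8, 30.6 and 27.6 CPM in young replicates. The aged values lay within the range of the young ones. The log2 fold change of MKS1 was 0.09 ± 0.09 (SE; 95% interval −0.10 to 0.28; edgeR adjusted p = 0.399), and its sign turned with a correction for gene length (−0.09).

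**Figure D3:**
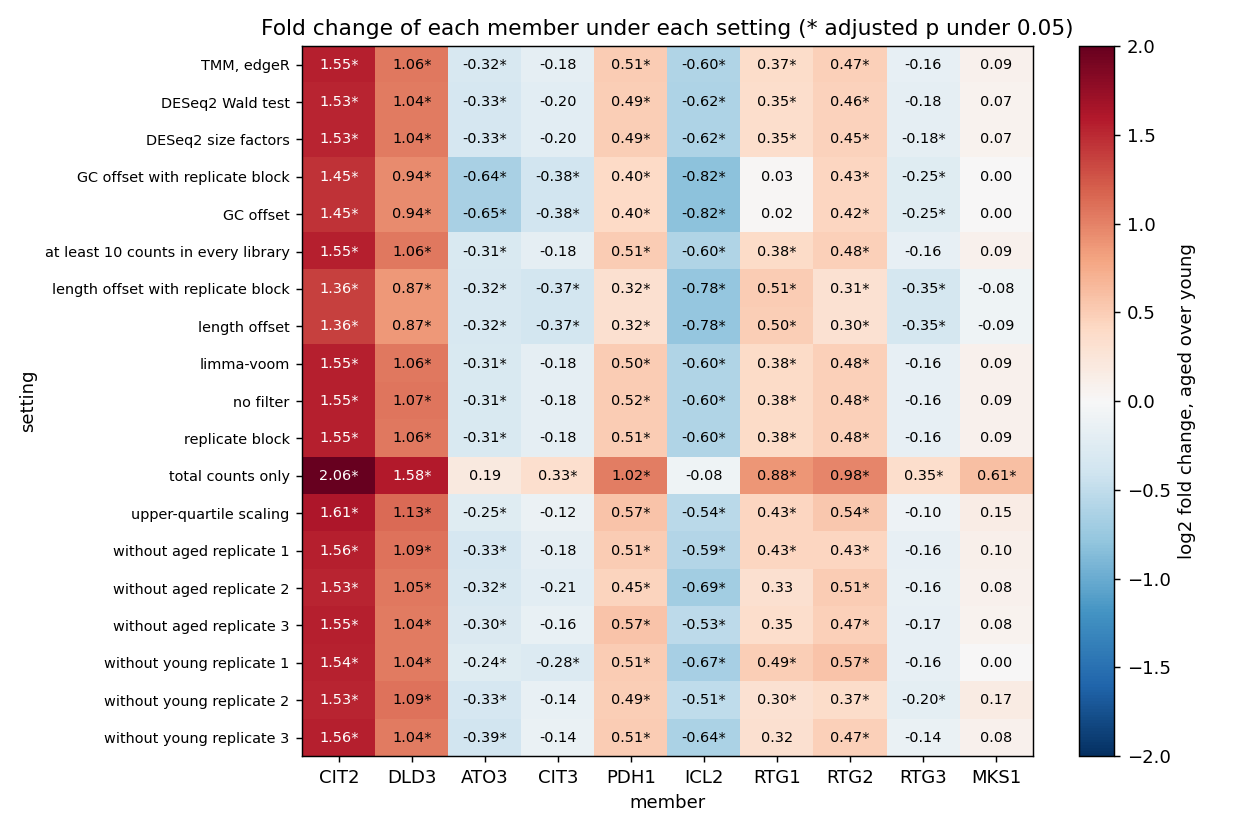
Log2 fold change of aged over young for each of the 10 genes (columns) in the reported analysis (top row) and 18 alternatives (rows below), with a star where the adjusted p-value was under 0.05. CIT2, between 1.36 and 2.06, and DLD3, between 0.87 and 1.58, kept their direction and call in every row, while ATO3, CIT3 and RTG3 turned positive with total counts alone and MKS1 turned negative with the length correction.

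Levels of different genes were compared per kilobase of coding length. In aged cells CIT2 stood highest at 188.6 ± 4.42 CPM per kb (SD, n = 3) and DLD3 next at 148.1 ± 5.07 CPM per kb. Next came ATO3 at 45.1 and ICL2 at 44.3 CPM per kb, which did not differ beyond their spread. They were followed by RTG2 at 36.8, RTG1 at 25.5, RTG3 at 20.6 and MKS1 at 16.7 CPM per kb, each without overlap with its neighbour. PDH1 at 9.82 and CIT3 at 9.49 CPM per kb came last and overlapped. In young cells the order began with DLD3 at 71.0 ± 2.25, ICL2 at 67.2 ± 7.29 and CIT2 at 64.6 ± 1.37 CPM per kb (SD). ICL2 overlapped both DLD3 and CIT2. ATO3 followed at 56.1 CPM per kb, then RTG2 at 26.5, RTG3 at 23.0 and RTG1 at 19.8 CPM per kb, whose libraries overlapped from one to the next. MKS1 was at 15.8, CIT3 at 10.8 and PDH1 last at 6.89 CPM per kb. CIT2 thus stood above all others without overlap in aged cells, whereas in young cells its mean was below those of DLD3 and ICL2.

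Relatives of these enzymes and transporters, with aconitase (ACO1) counted among them, were measured in the same libraries. Of the 7 relatives reported, 6 rose in aged cells (5 with a GC or length correction) and 1 did not pass, against 32.7% of all tested features that rose. Their median log2 fold change was 0.80. CIT1, the mitochondrial citrate synthase, rose (log2 1.05 ± 0.12 SE), as did DLD1, the mitochondrial D-lactate dehydrogenase (0.60 ± 0.10 SE), and ACO1, aconitase (0.80 ± 0.08 SE). ICL1, the isocitrate lyase of the glyoxylate cycle, rose by 0.30, an increase that vanished with a GC correction (−0.0014). It did not pass with a length correction either (0.12, edgeR adjusted p = 0.225). The ATO3 relatives ATO2, at 10.9 ± 0.603 CPM in aged and 5.20 ± 0.841 CPM in young cells (SD, n = 3 each), and ADY2, at 3.44 ± 0.305 CPM in aged and 1.81 ± 0.291 CPM in young cells, both rose, whereas ATO3 was lower (0.19 with total counts alone). DLD2, a mitochondrial relative of DLD3, had 119.6 ± 2.86 CPM in aged and 116.1 ± 8.60 CPM in young cells and did not pass (log2 0.04, and −0.14 with a length correction).

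**Figure D4:**
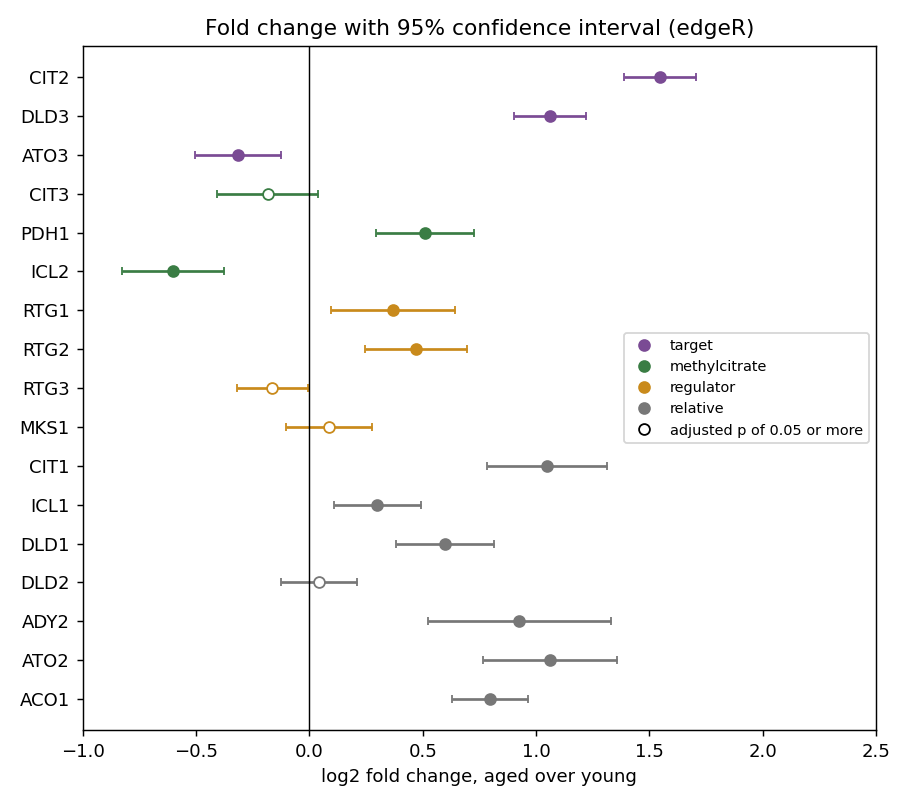
Log2 fold change of aged over young, with 95% confidence intervals from edgeR, for the 10 genes and 7 relatives. Filled points passed an adjusted p-value of 0.05. CIT2 at 1.55, DLD3, CIT1 and ATO2 lie at or above 1, and ATO3 and ICL2 lie below 0 with filled points. ATO3 turns positive with total counts alone.

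Ratios within a library do not depend on the scaling between libraries. Of 10 ratios formed per unit of coding length, 9 did not overlap between aged and young libraries. The share among ratios of other gene pairs was not computed, and 70.1% of single features did not overlap. Several of the 10 share a gene, so they are not independent. With 3 libraries a group, the smallest two-sided p an exact permutation test can give is 0.1, and those 9 ratios had that value (0.111 after adjustment over the 10). No ratio could therefore pass 0.05. The ratio of CIT2 to CIT1 was 2.02, 2.13 and 1.83 in aged replicates, against 1.22, 1.70 and 1.395 in young replicates. CIT2 thus outweighed CIT1 in all 6 libraries, and by more in the aged ones. Of the summed citrate synthase signal per length, CIT2 made up 64.4% ± 1.57 in aged and 53.4% ± 2.92 in young cells (SD, n = 3 each). CIT1 made up 32.4% ± 1.73 in aged and 37.7% ± 4.28 in young cells, and CIT3 made up 3.24% ± 0.166 in aged and 8.95% ± 1.41 in young cells.

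For the lactate enzymes, the ratio of DLD3 to DLD2 was 1.87, 1.97 and 2.08 in aged replicates, against 0.914, 0.986 and 1.03 in young replicates. The pair was thus near parity in young cells only. DLD3 to DLD1 was 5.31 to 5.46 in aged and 3.49 to 4.49 in young libraries. For the lyases, ICL2 to ICL1 was 3.56, 3.89 and 3.33 in aged replicates, against 5.77, 7.53 and 6.94 in young replicates. ATO3 stayed above its relatives in every library, but by less in aged cells: its ratio to ATO2 was 3.42 to 3.67 in aged and 8.82 to 9.81 in young libraries, and its ratio to ADY2 was 9.98 to 12.3 in aged and 24.8 to 27.8 in young libraries. Within the heterodimer, RTG1 to RTG3 was 1.14, 1.33 and 1.26 in aged replicates, against 0.990, 0.815 and 0.769 in young replicates, so RTG1 outnumbered RTG3 per length in aged libraries and not in young ones. A within-library ratio does not remove effects of GC content, and with the GC correction RTG1 was at 0.02 and RTG3 at −0.25. The ratio of MKS1 to RTG2 overlapped, at 0.423 to 0.482 in aged and 0.465 to 0.769 in young libraries (exact permutation p = 0.2).

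**Figure D5:**
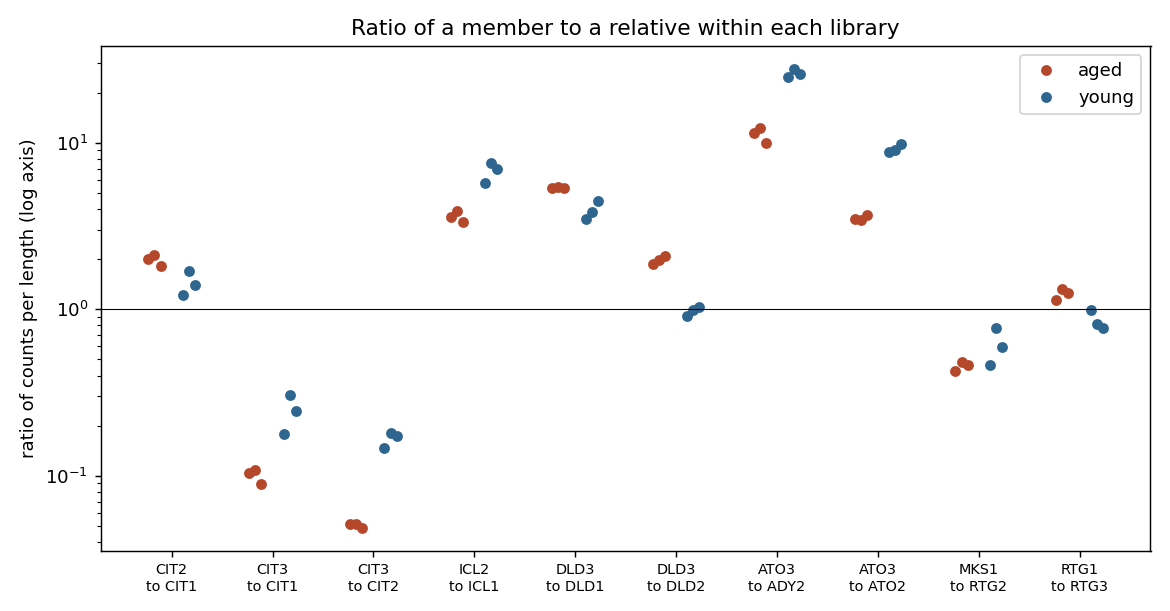
Ratio of counts per coding length between gene pairs in each of the 3 aged (left in each pair) and 3 young libraries, on a log axis. DLD3 to DLD2 lies at 1.87 to 2.08 in aged and 0.914 to 1.03 in young libraries, and only the ratio of MKS1 to RTG2 overlaps between the groups.

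Genes around the pathway were counted from lists. A list of 6 genes held the first steps of the citric acid cycle, which make alpha-ketoglutarate, and the pyruvate carboxylases that feed it. All 6 were higher in aged cells (5 with a GC correction), with a median log2 fold change of 0.72. CIT1 and ACO1, already counted among the relatives, are in this list too. PYC1, a pyruvate carboxylase gene, had 74.0, 73.6 and 69.3 CPM in aged replicates, against 37.8, 33.8 and 37.5 CPM in young replicates. All 5 listed genes of glutamate and glutamine metabolism were higher too, with a median of 1.04. GLN1, glutamine synthetase, had 459.2 ± 9.85 CPM in aged and 175.3 ± 5.86 CPM in young cells, and GDH3, an NADP-dependent glutamate dehydrogenase gene, had 24.5 ± 1.62 CPM in aged and 9.57 ± 0.780 CPM in young cells (SD, n = 3 each). The background is 32.7% of tested features higher, and these lists were chosen with earlier results known.

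Of 14 genes of the glyoxylate cycle and its carriers, 9 were higher and 1 was lower (2 with the replicate block), with a median of 0.37. Over all tested features, 32.7% were higher and 30.8% lower, and 63.5% passed in all. These counts moved with the processing, to 6 higher and 3 lower with a GC correction and 14 higher and 0 lower with total counts alone. CRC1, the mitochondrial carnitine carrier, was higher by 1.20 on the log2 scale and ODC1, a mitochondrial oxodicarboxylate carrier, by 1.04. Its paralog ODC2 fell by 0.18 (edgeR adjusted p = 0.0403), and was at 0.33 with total counts alone. The ODC2 call was lost without any 1 of 5 libraries (adjusted p 0.0627 to 0.133), young replicate 2 being the exception.

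Of 8 genes whose pathways yield propionyl-CoA or its precursors, 4 were higher and 1 was lower. BAT2 and BAT1, the branched-chain aminotransferases, were higher by 1.24 and 1.03 on the log2 scale. CHA1, the catabolic serine and threonine deaminase, had 67.9 ± 4.07 CPM in aged and 189.1 ± 15.0 CPM in young cells (SD, n = 3 each; log2 −1.48, edgeR adjusted p = 4.51e-07). The 5 that passed are close to the background of 63.5% of all features, and with a GC correction 2 were higher and 3 lower.

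Of 10 genes of TOR signalling and nitrogen sensing, 3 were higher, 2 were lower and 5 did not pass, with a median of −0.09. The background for these and the HAP genes below is 32.7% of tested features higher and 30.8% lower. With total counts alone 8 were higher and 0 lower. KOG1 (0.45) and TOR2 (0.37), which encode subunits of TOR complexes, were higher. LST8, a TOR complex subunit that restrains the retrograde pathway, was at −0.41, although at 0.10 with total counts alone. GLN3, a transcriptional activator of nitrogen catabolite genes, was at −0.53, and at −0.007 with total counts alone (edgeR adjusted p = 0.956). Of 5 HAP genes, which encode activators of respiratory genes, 2 were higher: HAP1 (0.31) and HAP5 (0.33). With a GC correction 0 of the 5 were higher and 2 were lower, HAP1 being at 0.11 (adjusted p = 0.254) and HAP5 at −0.02. Without aged replicate 1 or aged replicate 2, HAP5 did not pass (adjusted p = 0.0532 and 0.0695).

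The 3 features outside these lists whose values over the 6 libraries ran closest to those of CIT2 were NNR2, TFS1 and ADE1. Likeness was the Euclidean distance between log2 CPM values centred on each gene's mean, over 5441 features with at least 10 CPM on average. NNR2, an NAD(P)HX repair enzyme gene, was at a distance of 0.103 and had 121.1 ± 1.99 CPM in aged and 40.2 ± 2.10 CPM in young cells (SD, n = 3 each). TFS1, a carboxypeptidase Y inhibitor gene, was at 0.130 and ADE1, a purine synthesis gene, at 0.146. Their log2 fold changes were 1.59, 1.49 and 1.43.

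Mating type and mother or daughter identity were checked on marker lists. Transcripts of 5 alpha-specific genes summed to 3461 to 3785 CPM in aged and 4443 to 5439 CPM in young libraries. Most of that sum was MFALPHA1, an alpha-factor gene, at 2912 ± 182 CPM in aged and 3940 ± 389 CPM in young cells (SD, n = 3 each). Of the 5, MFALPHA1 and MFALPHA2 were lower, SAG1 was higher, and STE3 and AFB1 did not pass. The 7 a-specific genes, of which 4 were higher and 0 lower, summed to 38.4 to 41.6 CPM in aged and 32.3 to 39.4 CPM in young libraries. Of 10 genes expressed mainly in daughter cells, 7 passed the test as higher and 0 as lower. These 10 summed to 1357 to 1497 CPM in aged and 1119 to 1211 CPM in young libraries. Of all tested features, 32.7% were higher and 30.8% lower, and the marker counts were not followed under the other settings. Whether what moved these markers had a part in the values of the 10 genes was not tested.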

How the data were processed

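Poly(A) RNA from 3 aged and 3 young cultures was sequenced as paired-end reads from a directional kit. The authors deposited estimated counts per gene, not normalized, of which 54.3% to 59.5% per library are not whole numbers. The submitters' processing notes name bcl2fastq, cutadapt 2.6, STAR 2.7.6a, featureCounts, Subread 1.6.2 and genome build R64. The strand setting and the handling of reads that match several genes are not given in the sources used here, so reads of paralogs such as CIT1, CIT2 and CIT3 may be shared.

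Expected counts were rounded to whole numbers and tested in edgeR 4.0.16 (R 4.3.3) with TMM factors, a filter at a minimum count of 10 and group as the only term. 6755 of 7127 features were tested, and 25 were 0 in every library. 0 columns were left unassigned. The fit was tried on simulated counts with a single dispersion, in which few features changed. In these data 63.5% of features passed, so the simulation does not bear on the choice of scaling. Ratios used a pseudocount of 0.5 estimated counts. Coordinates, lengths and R box windows come from RefSeq's R64 annotation, which matched 6130 features. p-values measure the spread between 3 cultures a group, called biological replicates in the labels.

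The labels give replicate number as batch in both groups. The deviations of same-numbered libraries from their group means correlated at 0.126, 0.334 and 0.122 over 6755 features. Aged replicate 3 correlated more with young replicate 1 (0.202) than with its own number.

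The 10 genes and all lists were chosen with earlier results of these data known. Beside the 10 genes, the text names the relatives (1 gene was left out and is not reported here), the 2 largest rises and 2 largest falls past the threshold in each other list except the mating-type and daughter markers (given as sums and counts, with the alpha-specific genes named after their values were seen), the features of the chromosome XVI stretch and the 3 features most like CIT2. Alternatives were DESeq2 1.42.0, limma-voom (limma 3.58.1), other scalings, filters and thresholds, corrections for GC content and length, the replicate block and leaving out each library.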

Additional observations from a re-analysis of the deposited data

How the results depend on the processing

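CIT2, DLD3, PDH1 and RTG2 kept their direction and call under all 18 alternatives. With the replicate block 7 of the 10 genes passed, as without it, and no call among the 10 changed (YPR003C passed at −0.20, adjusted p = 0.045). Scaling by total counts alone gave 8 higher and 0 lower and a median of 0.74 for the 10 genes, with ATO3 at 0.19, CIT3 at 0.33, RTG3 at 0.35, LST8 at 0.10, ODC2 at 0.33, YPR003C at 0.32 and AIM45 at 0.30; over all features it called 4639 higher and 562 lower, against 2207 and 2081. The GC correction gave 4 lower and a median of 0.01 (0.0107, or 0.0149 with the replicate block), with ICL1 at −0.0014 and HAP5 at −0.0171 (−0.0127 with the block). The length correction gave 4 lower and a median of 0.109 (0.114 with the block), with MKS1 at −0.0876 (−0.083) and DLD2 at −0.141 (−0.138). In the lists, 5 genes of TOR signalling and nitrogen sensing were lower with the length correction, against 2. With the GC correction 3 propionyl-CoA genes were lower, against 1. The causes were not tested. Leaving out 1 library at a time, 6 to 8 of the 10 genes passed and DLD2 lay between −0.0173 and 0.0756. At an adjusted p-value of 0.01, 6 passed. With 3 libraries a group, the median SE over all features was 0.0944 on the log2 scale.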
